A study of Mus musculus with 8 samples.

Results

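The elastic fiber genes were followed through the change of the notochord into the nucleus pulposus (NP), the soft core of the intervertebral disc. They were a list of 10 genes chosen by name, Eln, Fbn1, Fbn2, Fbln1, Fbln2, Fbln5, Efemp2, Mfap2, Mfap4 and Emilin1, out of 43346 genes counted. This list and those below were chosen with earlier results of these data known. All 10 were found and all 10 had enough reads to be tested. Notochord-derived cells (NDCs) came from Shh-cre;ROSA:YFP mice, in which Cre driven by Shh switches on a yellow fluorescent protein in cells that express Shh and in their descendants. The same alleles were present at both stages. At embryonic day 12.5 (E12.5) whole notochords were dissected and put straight into TRIzol, with no sorting. At postnatal day 0 (P0) NP cells were shaken loose from bisected discs and sorted for the fluorescent protein. Each of the 4 samples of a stage was the pooled material of 1 litter, namely NDP10.2, NPD3, NPD4 and NPD9.2 at E12.5 and NPD26, NPD27, NPD28 and NPD30 at P0. Stage and way of isolation changed together and cannot be told apart. The comparison asks how the messages of the elastic fiber differ between notochord and newborn NP.

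An elastic fiber has a core of crosslinked elastin laid onto a scaffold of microfibrils. Fibrillins are the building units of the microfibrils, and microfibril-associated glycoproteins and emilins sit on or between them. Fibulins guide the soluble elastin precursor onto the scaffold, and lysyl oxidases then crosslink it. Microfibrils can also be laid down without elastin, and they hold latent TGF-β and bone morphogenetic proteins in the matrix. In the disc, elastic fibers are best known from the annulus fibrosus, and they are also found in the NP.

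Genes took 4442775 to 7180221 reads in an E12.5 litter and 6371842 to 8904050 reads in a P0 litter. These were 22.6% of the reads tallied in NDP10.2, 24.6% in NPD9.2 and 30.9% to 34.8% in the other litters. NDP10.2 and NPD9.2 also had the highest summed erythroid markers, 24870 and 49400 CPM. Fits without both litters are given below for several genes. Values are CPM (counts scaled to a library of fixed size) with library sizes scaled by TMM, a method that corrects for differences in library composition, and 3 reads equalled 0.337 to 0.675 CPM before that scaling. Log2 fold changes set P0 over E12.5 and come, with their standard error (SE), from edgeR's quasi-likelihood test, and a gene was called at a Benjamini-Hochberg adjusted p under 0.05. The notochord gene T was present in every litter, at 242 to 942 CPM at E12.5 and 574 to 2323 at P0, whereas Noto did not exceed 0.433 CPM in any. Of the 11 notochord and NP markers, 2 were lower in every P0 litter than in any E12.5 litter, Shh and Foxa1. Shh stood at 420 to 1348 CPM at E12.5 and 0.157 to 11.8 at P0. Another 3, Car3, Sostdc1 and Cd24a, were higher in every P0 litter. Of all genes tested, 14.4% were lower and 15.5% higher in this way. Markers of other cells were also present. The summed level of 12 leukocyte markers reached 64.4 to 131 CPM at E12.5, and 379 in NPD30 against 3187 to 4304 in the other P0 litters. The summed level of 9 neural markers was 2235 CPM in NPD4, 113 to 164 in the other E12.5 litters and 355 to 956 at P0.

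Of the 10 elastic fiber genes, 7 fell between E12.5 and P0 and none rose. The number that rose was 0 with edgeR, DESeq2 and limma-voom alike, and 0 with edgeR at an unadjusted p under 0.05. Of the 15467 genes tested, 1853 fell, which is 12.0%, and 2468 rose, which is 16.0%. Because the list was chosen with earlier results of these data known, setting its count beside these shares is not an independent comparison. With upper quartile scaling in place of TMM 2322 fell and 2105 rose, and the members' count stayed at 7 lower and 0 higher. The genes that fell were both fibrillins, Fbn1 and Fbn2, the fibulins Fbln1 and Fbln2, the microfibril-associated Mfap2 and Mfap4, and Emilin1. For these 7 every P0 litter lay below every E12.5 litter, a separation found for 14.4% of all genes tested. The other 3, Eln, Fbln5 and Efemp2, were not called with all litters, and their litters overlapped between stages. Of these Efemp2 had an unadjusted p of 0.0316. They encode elastin itself and the fibulins most closely tied to elastin assembly. The median log2 fold change of the 10 genes was -2.01, beside 0.036 over all genes tested. In these bulk samples fewer cells of a type and less RNA per cell cannot be told apart.

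**Figure D1:**
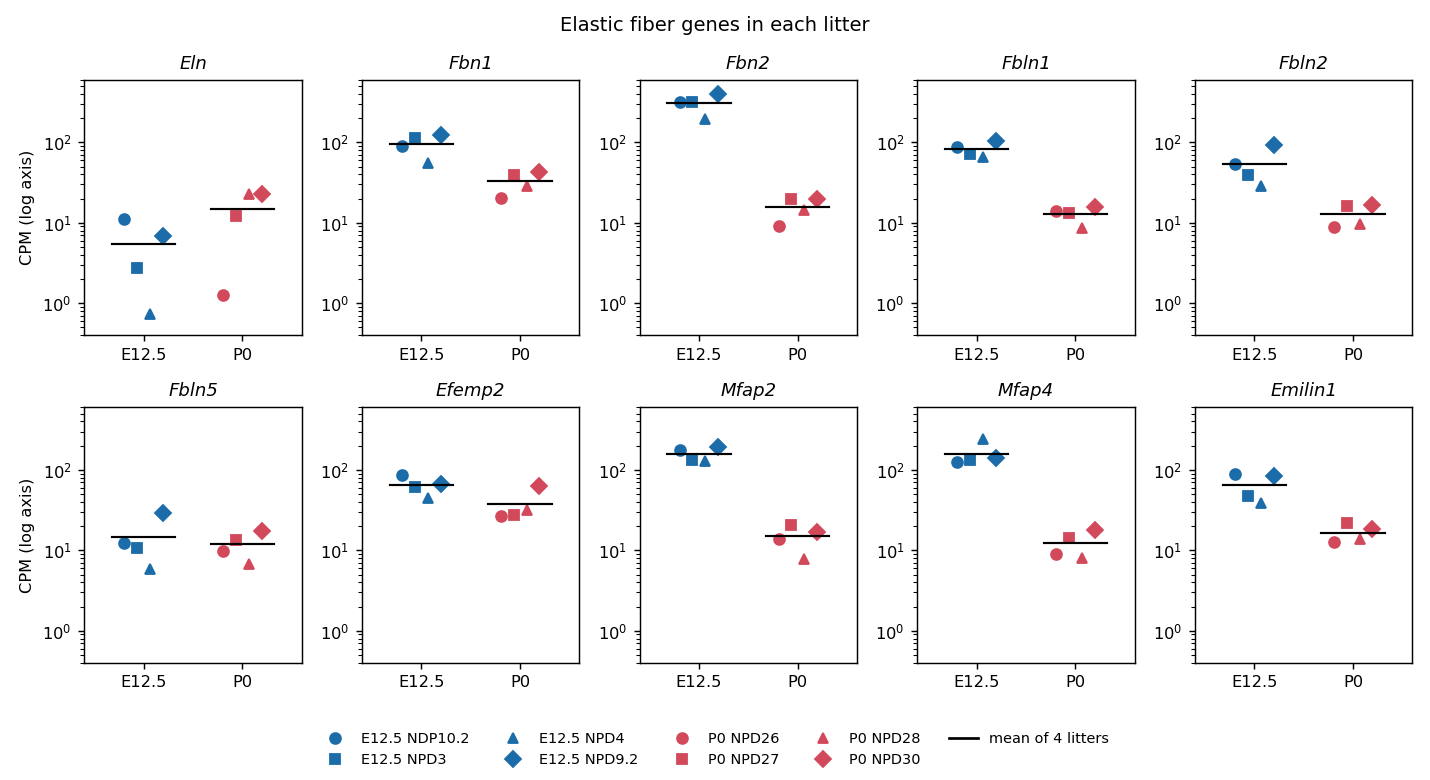
CPM of each elastic fiber gene in each litter on a log axis, with E12.5 in blue, P0 in red, a symbol for each litter and a bar at the mean of 4 litters. Fbn1, Fbn2, Fbln1, Fbln2, Mfap2, Mfap4 and Emilin1 separate the stages, while the litters of Eln, Fbln5 and Efemp2 overlap.

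The bases just upstream of the start of transcription are shown for a pair of genes that fell, Fbln1 and Mfap2, and a pair that were not called, Fbln5 and Efemp2. They are RefSeq sequence on GRCm38.p6, which holds promoters for 7 of the 10 genes. Those of Fbn1, Fbln2 and Emilin1, which also fell, are left out because their upstream stretches ran into annotated exons. The printed genes therefore do not stand for all that fell or were not called. Each printed stretch ends at the start of transcription or, for Mfap2, at an exon annotated a few bases before it. The stretches are chr15:85205699-85205948 (plus strand) for Fbln1, chr4:141010174-141010417 (plus strand) for Mfap2, chr12:101819120-101819369 (minus strand) for Fbln5 and chr19:5473696-5473945 (plus strand) for Efemp2. Capitals mark the GC box GGGCGG or its reverse complement CCGCCC.
Fbln1: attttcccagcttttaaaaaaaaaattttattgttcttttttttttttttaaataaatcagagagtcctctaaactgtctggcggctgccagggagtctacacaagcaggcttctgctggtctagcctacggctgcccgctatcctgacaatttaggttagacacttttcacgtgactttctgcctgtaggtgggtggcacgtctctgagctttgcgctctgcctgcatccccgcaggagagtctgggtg
Mfap2: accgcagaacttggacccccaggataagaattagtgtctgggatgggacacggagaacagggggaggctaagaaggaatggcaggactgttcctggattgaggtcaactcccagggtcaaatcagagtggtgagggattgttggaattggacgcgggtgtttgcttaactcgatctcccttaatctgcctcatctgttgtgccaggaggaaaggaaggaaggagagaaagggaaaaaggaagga
Fbln5: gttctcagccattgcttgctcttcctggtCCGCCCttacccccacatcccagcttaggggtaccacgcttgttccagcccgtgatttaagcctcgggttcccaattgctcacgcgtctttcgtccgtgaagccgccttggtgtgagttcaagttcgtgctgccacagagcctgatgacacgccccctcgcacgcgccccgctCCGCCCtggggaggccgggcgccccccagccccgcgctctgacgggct
Efemp2: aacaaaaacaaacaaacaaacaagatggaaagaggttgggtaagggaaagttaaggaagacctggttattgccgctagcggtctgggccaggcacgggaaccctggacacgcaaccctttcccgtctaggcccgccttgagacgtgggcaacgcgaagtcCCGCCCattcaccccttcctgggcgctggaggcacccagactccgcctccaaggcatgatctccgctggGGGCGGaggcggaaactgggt

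The Fbln1 stretch held 7 CpG dinucleotides and the Mfap2 stretch 5, near the median of 6 over all RefSeq promoter stretches of 250 bases. The Fbln5 stretch held 21 and the Efemp2 stretch 15. Fbln5 and Efemp2 each had 2 GC boxes, and Fbln1 and Mfap2 had none. RefSeq gives Efemp2 another start. The stretch upstream of it, cut to 203 bases where it met an annotated exon (chr19:5474485-5474687), held 26 CpG dinucleotides and 4 GC boxes. Over 32841 promoter stretches, 32.75% held a GC box on either strand. None of the 4 printed stretches held TATAAA on either strand, which 12.37% of all stretches did. These are matches of letters in 4 genes and say nothing of which factors bind there.

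The fibrillins fell to different extents. Fibrillin-2 is the fibrillin of developing tissues, and Fbn2 (chr18:58008623-58210487, minus strand) showed the largest difference among the 10 genes. Fbn2 stood at 315, 322, 195 and 394 CPM in the E12.5 litters NDP10.2, NPD3, NPD4 and NPD9.2, and at 9.12 in NPD26, 19.6 in NPD27, 14.4 in NPD28 and 19.9 in NPD30 at P0. The lowest E12.5 litter, NPD4, was far above the highest P0 litter. The means were 306 ± 82.6 and 15.7 ± 5.09 CPM (SD, n = 4 litters each), a 19.4-fold fall with a log2 fold change of -4.28 (SE 0.345, edgeR adjusted p = 5.65e-05).

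Fibrillin-1 is the main fibrillin of adult microfibrils. In the same order of litters, Fbn1 (chr2:125300594-125507993, minus strand) stood at 91.1, 113, 56.0 and 123 CPM at E12.5 and 20.1, 39.2, 28.7 and 42.3 CPM at P0. NPD4 was again the lowest E12.5 litter and still above NPD30, the highest P0 litter. The log2 fold change was -1.55 (SE 0.317, edgeR adjusted p = 0.00451), and against a fold change of 2 rather than 0 the adjusted p was 0.0972. In the Gencode M21 annotation 20.1% of the exon bases of Fbn1 are shared with Gm9913 on the opposite strand, and the strand setting of the counting was not stated in the sources used here.

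Because both fibrillins are counted in the same library, their ratio does not depend on scaling between libraries. In the E12.5 litters there were 3.46, 2.85, 3.48 and 3.20 Fbn2 reads for each Fbn1 read. In the P0 litters there were 0.453, 0.500, 0.500 and 0.470. Fbn2 thus had the more reads in every E12.5 litter and Fbn1 in every P0 litter. The mean log2 ratio was 1.70 ± 0.13 at E12.5 and -1.06 ± 0.07 at P0 (SD), a difference of -2.75. The two-sided exact permutation test gave p = 0.0286, the smallest that 4 against 4 litters allow. NPD4, the lowest E12.5 litter for each fibrillin, had a ratio of 3.48 beside 3.46 in NDP10.2, and NPD30, the highest P0 litter for each, had 0.470.

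**Figure D2:**
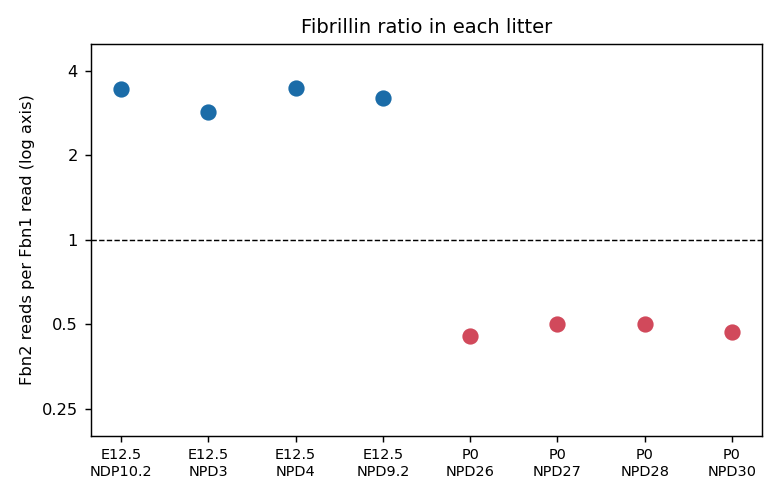
Fbn2 reads per Fbn1 read in each litter, on a log axis, with E12.5 in blue and P0 in red and a dashed line at 1. The E12.5 litters lie between 2.85 and 3.48 and the P0 litters between 0.453 and 0.500.

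The microfibril-associated genes fell 10.5-fold for Mfap2 and 13.1-fold for Mfap4. Mfap2 encodes MAGP-1, a small glycoprotein that binds fibrillins and TGF-β family ligands. Mfap2 (chr4:141010418-141015984, plus strand) stood at 178, 131, 127 and 190 CPM at E12.5 and 14.0, 20.8, 7.89 and 16.8 CPM at P0. The means were 157 ± 32.1 and 14.9 ± 5.42 CPM (SD, n = 4 litters each), which gave -3.40 on the log2 scale (SE 0.326, edgeR adjusted p = 0.00012).

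Mfap4 encodes a fibrinogen-related protein that binds elastin and fibrillin-1. Mfap4 (chr11:61485431-61488900, plus strand) stood at 125, 131, 240 and 142 CPM at E12.5 and 8.96, 14.1, 8.01 and 17.7 CPM at P0. It was the exception among the 10 genes in NPD4, where it was highest of the E12.5 litters. The log2 fold change was -3.71 (SE 0.351, edgeR adjusted p = 0.000112), and without NPD4 it was -3.45 with a call.

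Emilin1 encodes a glycoprotein found where elastin meets the microfibrils. Emilin1 (chr5:30913402-30921277, plus strand) stood at 89.9, 47.0, 38.3 and 84.1 CPM at E12.5 and 12.6, 22.1, 13.8 and 18.2 CPM at P0. NDP10.2 and NPD9.2 were the high litters at E12.5. The log2 fold change was -1.96 (SE 0.332, edgeR adjusted p = 0.00186).

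The fibulins split. Fibulin-1 and fibulin-2 bind fibronectin, laminins and proteoglycans as well as elastic fibers, and their genes fell. Fbln1 (chr15:85205949-85286535, plus strand) stood at 88.5, 70.8, 66.1 and 102 CPM at E12.5 and 13.8, 13.3, 8.48 and 15.8 CPM at P0, and its log2 fold change was -2.67 (SE 0.269, edgeR adjusted p = 0.000148). Its SE was the smallest of the 10 genes. Fbln2 (chr6:91212455-91272540, plus strand) stood at 53.3, 39.0, 28.6 and 93.2 CPM at E12.5 and 8.81, 16.1, 9.77 and 16.4 CPM at P0, and its log2 fold change was -2.06 (SE 0.389, edgeR adjusted p = 0.00312). The E12.5 litters of Fbln2 spread widely, and without NDP10.2 and NPD9.2 the log2 fold change was -1.44 (adjusted p = 0.0366).

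Efemp2 encodes fibulin-4 and Fbln5 encodes fibulin-5, which bring elastin and lysyl oxidases together. Efemp2 (chr19:5473954-5482517, plus strand) stood at 87.0, 60.5, 45.0 and 66.6 CPM at E12.5 and 26.9, 27.7, 31.4 and 62.8 CPM at P0. Of the P0 litters, 3 lay below all E12.5 litters, and NPD30 lay among them. With all litters the log2 fold change was -0.80 (SE 0.325, edgeR adjusted p = 0.0902), and without NPD30 it was -1.21 (adjusted p = 0.00611), which is a call. NPD30 also had the lowest summed leukocyte markers of the P0 litters, 379 CPM, and the highest summed notochord and NP markers, 32800 CPM against 8452 to 13080. Car3 alone gave 24890 CPM of that sum in NPD30. The part of these markers in the Efemp2 value was not tested.

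Fbln5 (chr12:101746565-101819055, minus strand) stood at 12.5, 10.7, 5.80 and 28.8 CPM at E12.5 and 9.75, 13.4, 6.83 and 17.3 CPM at P0. NPD9.2 alone lay above the P0 range and NPD4 below it. The log2 fold change was -0.28 (SE 0.481, edgeR adjusted p = 0.706), and without NPD9.2 it was 0.26 (adjusted p = 0.711), so the data give Fbln5 no direction.

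Eln encodes elastin, the protein of the core. Eln (chr5:134702593-134747323, minus strand) was counted at 47, 14, 6 and 28 reads at E12.5 and at 8, 84, 192 and 152 reads at P0. In CPM these were 11.1, 2.73, 0.725 and 6.88 at E12.5 and 1.26, 12.1, 22.6 and 23.0 at P0. At P0 NPD27, NPD28 and NPD30 lay above every E12.5 litter, and NPD26 lay below all but NPD4. The means were 5.36 ± 4.60 and 14.8 ± 10.3 CPM (SD, n = 4 litters each). The log2 fold change was 1.50 (SE 0.882, edgeR adjusted p = 0.241), the largest SE among the 10 genes. The 8 fits without 1 litter gave 1.10 to 2.11 and made no call, and the fit without NDP10.2 and NPD9.2 gave 3.11 (adjusted p = 0.109). The lowest litters had 6 and 8 reads, and the difference was not resolved against the spread between litters.

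The 5 genes whose log2 CPM followed that of Eln most closely over the 8 litters, among 12687 genes with a mean log2 CPM of at least 2, were Ptpn23 (Pearson r = 0.982), Fam120a (0.973), Fbxw8 (0.965), Rnf123 (0.954) and Ank1 (0.952). These r values describe 8 libraries that differ in stage, isolation and depth, and come from the top of many genes ranked. None of the elastic fiber or assembly genes was among them. Ptpn23 ranged from 49.0 to 90.8 CPM at E12.5 and from 58.2 to 105 CPM at P0, a much narrower range than that of Eln.

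**Figure D3:**
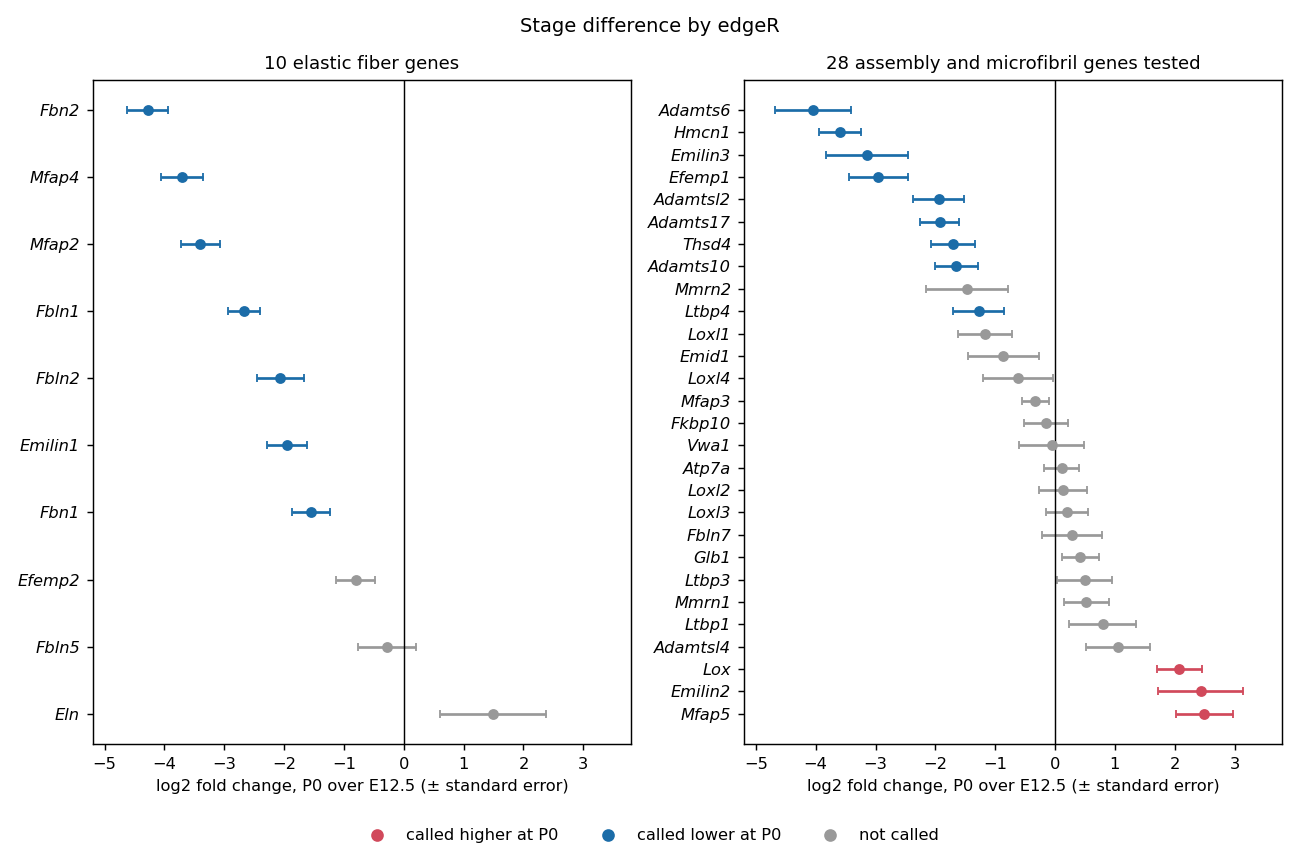
Log2 fold change, P0 over E12.5, with its standard error, for the 10 elastic fiber genes (left) and the 28 assembly and microfibril genes tested (right), blue for genes called lower at P0, red for genes called higher and grey for genes not called. On the left 7 genes are called lower and Eln is the only value above 0, while on the right 9 are lower and 3 are higher.

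Levels of different genes can be compared only per length, and CPM was divided by the kilobases of exon of each gene. At E12.5 Mfap2 led with 129 ± 26.5 CPM per kb (SD, n = 4 litters), followed by Mfap4 with 83.0 and Fbn2 with 23.2. Fbln1, Efemp2, Emilin1, Fbln2 and Fbn1 followed between 18.8 and 7.89, then Fbln5 with 2.09 and Eln with 0.662. The ranges of neighbours in this order were apart only between Mfap4 and Fbn2 and between Fbn1 and Fbln5. At P0 Mfap2 still led with 12.3 CPM per kb, followed by Efemp2 with 9.82 and Mfap4 with 6.35, and Fbn2 was last with 1.19. At P0 every neighbouring pair overlapped. With the longest transcript as length in place of all exon bases, Efemp2 led at P0 with 14.1 and Mfap2 followed with 13.9. By that length Eln had 1.39 rather than 0.662 at E12.5 and 3.83 rather than 1.82 at P0, so its level depends on the length chosen.

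Summed over the 10 genes, the level per kb was 304 ± 37.9 at E12.5 and 44.2 ± 13.1 at P0 (SD, n = 4 litters each). Single E12.5 litters had 260 to 349 and P0 litters 32.5 to 59.9, so the stages did not overlap. Within that sum Mfap2 made up 42.4% at E12.5 and 27.8% at P0, and Fbn2 7.64% and 2.71%. Efemp2 made up 4.10% to 7.27% in the E12.5 litters and 14.6% to 27.7% in the P0 litters. Eln made up at most 0.433% in an E12.5 litter and from 0.453% in NPD26 to 8.59% at P0. Shares within a sum move together by construction, and no test was made on them.

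**Figure D4:**
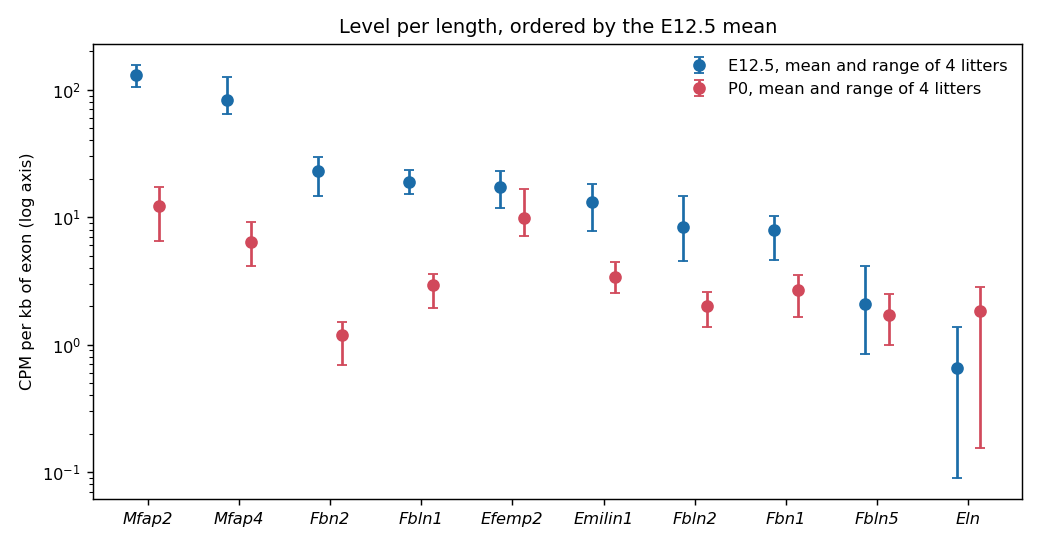
Mean CPM per kb of exon for each elastic fiber gene on a log axis, with bars from the lowest to the highest of 4 litters, E12.5 in blue and P0 in red, ordered by the E12.5 mean. The E12.5 means run from 129 for Mfap2 to 0.662 for Eln, and the P0 means from 12.3 for Mfap2 to 1.19 for Fbn2.

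The litters of a stage differed from one another in a way that several genes shared. At E12.5 NPD4 was the lowest litter for 9 of the 10 genes, all but Mfap4, and NPD9.2 was the highest for 6. At P0 NPD30 was the highest litter for 8 genes, all but Mfap2 and Emilin1, and the lowest values lay in NPD26 for 6 genes and in NPD28 for 4. NPD4 was the litter with 2235 CPM of neural markers, and NPD30 the one with 379 CPM of leukocyte markers. NPD4 was also the lowest E12.5 litter for the summed notochord and NP (2412 CPM), chondrocyte (2392) and sclerotome (132) markers. The same held for its osteoblast, smooth muscle, fibroblast and tendon sums, while its endothelial sum, 188 CPM, was the highest. The part of these markers in the orders of litters was not tested. The 7 genes that fell were below every E12.5 litter in NPD30 too, and each of the 7 was called in all 8 fits that left out 1 litter.

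**Figure D5:**
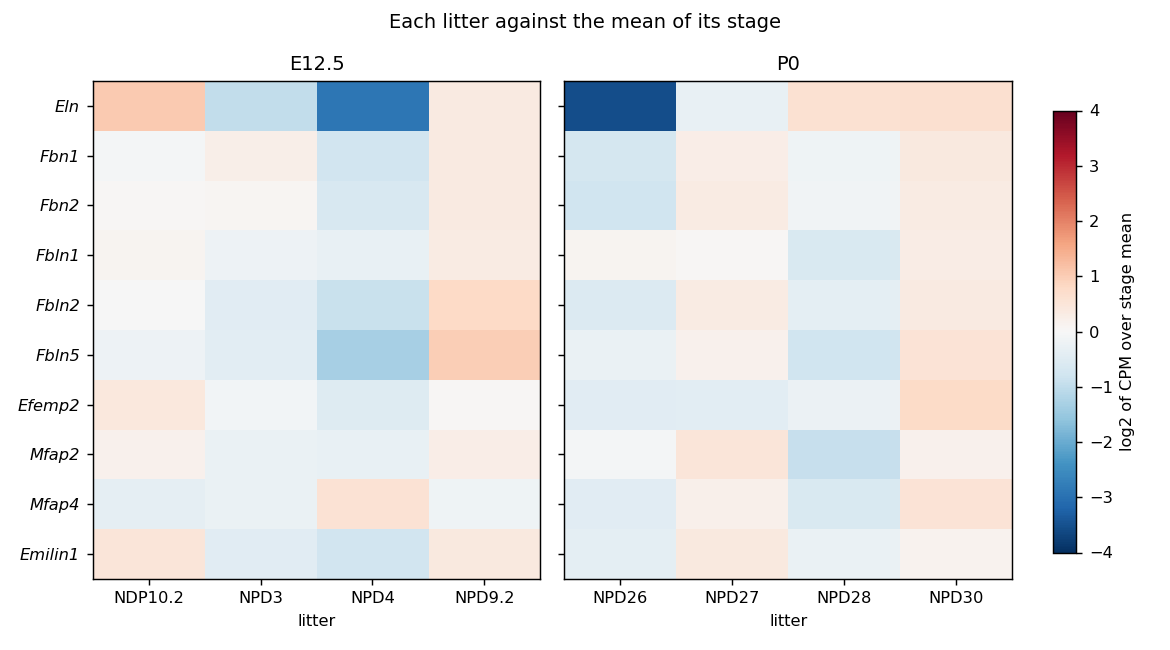
Log2 of the CPM in each litter over the mean of its stage, for the 10 elastic fiber genes, with red above and blue below the mean of the 4 litters. The NPD4 column is below the mean for every gene but Mfap4, and the NPD30 column is above it for every gene.

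Markers of sclerotome, the tissue around the notochord, were also lower at P0. The summed level of 7 sclerotome markers, which mark the embryonic precursors of vertebrae and annulus, was 132 to 187 CPM in the E12.5 litters against 7.77 to 21.8 in the P0 litters. For all 7 every P0 litter was below every E12.5 litter, and Nkx3-2 and Uncx were at 0 in NPD28. Of all genes tested, 14.4% were lower and 15.5% higher in every P0 litter, and the counts below are to be read beside these shares. The 7 fibroblast markers summed to 223 to 431 CPM at E12.5 and 180 to 254 at P0, with 2 of the 7 lower and 2 higher in every P0 litter. The 9 markers of smooth muscle and pericytes, which make elastic fibers in vessels, summed to 226 to 681 CPM at E12.5 and 251 to 677 at P0. Of these, 1 was higher and 1 lower in every P0 litter. The 9 endothelial markers summed to 95.4 to 188 and 43.8 to 153 CPM, with 1 of the 9 lower in every P0 litter. The 7 tendon and annulus markers summed to 92.6 to 319 and 433 to 1472 CPM, most of it Fmod, with 1 of the 7 higher and 2 lower in every P0 litter. The 9 osteoblast markers summed to 56.3 to 333 and 1105 to 1922 CPM, with 8 of the 9 higher in every P0 litter. The sums of the 9 chondrocyte markers overlapped, at 2392 to 8853 and 2025 to 8911 CPM, although 1 of the 9 was higher and 2 lower in every P0 litter. The 9 erythroid markers summed to 10140 to 49400 and 363 to 1247 CPM, with 6 of the 9 lower in every P0 litter. How much of each elastic fiber gene came from such cells was not tested.

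Among 30 other genes of elastic fiber assembly and of microfibrils, 28 could be tested, and 9 fell and 3 rose, beside 12.0% and 16.0% of all genes. Ltbp2 and Hmcn2 did not pass the filter on low counts, and for both the lowest P0 litter lay above the highest at E12.5. Ltbp2, a latent TGF-β binding protein gene, had 3, 1, 4 and 3 reads at E12.5 and 5, 45, 53 and 50 at P0. NPD26, at 0.786 CPM, lay barely above the highest E12.5 litter, at 0.738 CPM. Some fits without 1 litter could test Ltbp2, but only through its high P0 litters, and no call is drawn from them. The median log2 fold change of the 28 was -0.24, beside 0.036 over all genes tested. Adamts6, a metalloprotease of the fibrillin-associated kind, had a log2 fold change of -4.05 (SE 0.641, edgeR adjusted p = 0.00152). The hemicentin Hmcn1 had -3.59, Emilin3 had -3.14, and Efemp1, which encodes fibulin-3, had -2.95. The fibrillin-binding Adamtsl2 had -1.95, Adamts17 -1.93 and Thsd4 -1.70. At P0 Adamts6 had 3, 35, 24 and 6 reads, Emilin3 2, 13, 2 and 8, Efemp1 6, 11, 12 and 8, and Adamtsl2 7, 20, 15 and 16. These genes passed the filter through their E12.5 reads, so the sizes of their changes are loosely set. With at least 10 counts in every sample none of them could be tested, and 5 of 20 assembly genes fell. Without NDP10.2 and NPD9.2 the calls of Emilin3 (-2.58, adjusted p = 0.0737) and Thsd4 (-1.40, adjusted p = 0.0694) were lost. Ltbp4, which holds latent TGF-β and works with fibulin-5, had -1.28 (SE 0.424, edgeR adjusted p = 0.0442). The call was lost in the fits without NDP10.2, NPD9.2, NPD26, NPD27 or NPD28, where the log2 fold change ranged from -1.34 to -1.04. It was also lost with limma-voom (-1.16, adjusted p = 0.0719) and without NDP10.2 and NPD9.2 together (-0.52, edgeR adjusted p = 0.442).

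The genes that rose included the crosslinking enzyme Lox. Lox (chr18:52516067-52529867, minus strand) stood at 18.6, 20.5, 11.1 and 38.1 CPM at E12.5 and 67.9, 107, 71.8 and 125 CPM at P0. Every P0 litter was above every E12.5 litter, and the log2 fold change was 2.08 (SE 0.375, edgeR adjusted p = 0.00252), opposite in sign to that of the fibrillins.

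Its relative Loxl1, which is tied to fibulin-5 in elastin crosslinking, overlapped between stages, at 14.6 to 56.1 CPM at E12.5 and 8.49 to 16.4 at P0 (log2 fold change -1.17, edgeR adjusted p = 0.0796). Loxl1 was called lower with DESeq2 (-1.18, adjusted p = 0.0492), with no filter on low counts (-1.15, adjusted p = 0.0195) and without NPD4 (-1.37, adjusted p = 0.0473). Mfap5 encodes MAGP-2, the close relative of Mfap2. Mfap5 stood at 2.12, 0.781, 1.21 and 2.46 CPM at E12.5 and 10.1, 10.5, 5.65 and 10.3 CPM at P0, and its log2 fold change was 2.49 (SE 0.478, edgeR adjusted p = 0.00338). Mfap5 had only 9, 4, 10 and 10 reads at E12.5 and passed the filter through its 64, 73, 48 and 68 reads at P0. The log2 fold changes of the MAGP genes thus had opposite signs, with that of Mfap5 resting on few E12.5 reads. Emilin2 had a log2 fold change of 2.43 (edgeR adjusted p = 0.0289), but without NPD28 it had 1.56 (adjusted p = 0.0731), and the call was also lost without NPD3, NPD4, NPD9.2 or NPD27. The same held with limma-voom (2.24, adjusted p = 0.0692), with no filter on low counts, and without NDP10.2 and NPD9.2 together.

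Proteases that can cut elastin were also read, as a list of 11 of which 8 could be tested. Of these, 5 rose and 2 fell, Mmp2 (log2 fold change -2.37) and Mmp14 (-0.79), beside 16.0% and 12.0% of all genes. The call of Mmp14, whose litters overlapped, held in 2 of the 8 fits without 1 litter, with an edgeR adjusted p of up to 0.0821. Mmp9, Ctss, Ctsg and Ctsk moved furthest on the log2 scale, with log2 fold changes of 7.08, 6.12, 4.87 and 3.74, and are known from neutrophils, macrophages and osteoclasts. Ctsg had 0, 0, 1 and 3 reads at E12.5 and passed the filter through its 76, 49, 16 and 26 reads at P0. The size of its change is thus loosely set, at 4.35 to 6.37 without each litter. Ctss lost its call with limma-voom (4.90, adjusted p = 0.0571) and without NDP10.2 and NPD9.2 (6.11, adjusted p = 0.0529). The neutrophil protease Prtn3 also rose, by 2.85 on the log2 scale. Elane, neutrophil elastase, did not pass the filter on low counts. It had 0 reads in every E12.5 litter and 45, 75, 11 and 62 reads in the P0 litters. Mmp9 stood at 1059 CPM in NPD28 against 90.5 to 150 CPM in the other P0 litters, and without NPD28 its log2 fold change was 5.50. Ctss stood at 8.79 CPM in NPD30 against 203 to 778 CPM in the other P0 litters. The summed neutrophil markers were 4.01 to 15.8 CPM at E12.5 and 764 to 6678 at P0, highest in NPD28, and the leukocyte markers were lowest in NPD30. Their part in the protease values was not tested.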

How the data were processed

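The authors aligned single-end reads of 100 bases from TotalScript libraries to GRCm38.p3 (STAR 2.4.0j in the submitters' processing notes, which also list mm9) and used HTSeq to count them per gene of Gencode M4. They deposited raw counts, 1 whole number per gene and litter, without normalization. Gene symbols, positions and exon lengths were taken from Gencode M21 on GRCm38. Of 43346 identifiers, 42462 had a symbol. Reads counted on genes were 22.6% to 34.8% of all reads tallied, and the other tallies were left out. In R 4.3.3, edgeR 4.0.16 was run on all 8 libraries with TMM, filterByExpr (minimum count 10, minimum total 15) and robust quasi-likelihood F-tests, and p-values were adjusted over 15467 genes. The standard error is the size of the log2 fold change over the square root of F. DESeq2 1.42.0 and limma 3.58.1 (voom), other scalings and filters, and litters left out were alternatives. The study used DESeq2. The fit was tested on simulated data. Depth limits are counting error only. Log2 CPM used a prior count of 2. Members, lists and tests were chosen with earlier results of these data known. Named beside the 10 members were Lox, Loxl1, Ltbp4, Mfap5 and Efemp1, the 10 assembly genes and 4 proteases with the largest called changes, and the 5 nearest to Eln by Pearson r. Genes that explain a library or a filter (T, Noto, Shh, Foxa1, Car3, Sostdc1, Cd24a, Fmod, Nkx3-2, Uncx, Ltbp2, Hmcn2, Mmp2, Mmp14, Prtn3 and Elane) were named after their values were seen. Litters were taken from the labels.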

Additional observations from a re-analysis of the deposited data

Results flagged for a closer look

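In each stage the highest and the lowest of the 4 litters were set against the others for the 26 genes named, 52 groups in all, and a litter was singled out where its gap to the next was above Dixon's 95% critical value. This singled out 6 groups, and chance gives about 5% of groups. Among the elastic fiber genes, Efemp2 was high in NPD30, at 62.8 CPM against 26.9 to 31.4 in the other P0 litters, and Mfap4 was high in NPD4, at 240 CPM against 125 to 142 in the other E12.5 litters. The other 4 were Mfap5 in NPD28, at 5.65 CPM against 10.1 to 10.5, Adamts17 in NPD9.2, at 37.4 CPM against 23.6 to 25.2, Mmp9 in NPD28, at 1059 CPM against 90.5 to 150, and Ctsg in NPD9.2, at 0.738 CPM against 0 to 0.121. That Ctsg value is 3 reads.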

How the results depend on the processing

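Each elastic fiber gene was refitted under 19 alternatives, or 18 for Eln, which could not be fitted with at least 10 counts in every sample. Of these 189 values, 185 kept their direction and their side of the threshold. Fbln5, at -0.56 to 0.26 without each litter, turned sign without NPD9.2 (0.26) and without NDP10.2 and NPD9.2 together (0.49). Efemp2 gained a call without NPD30, and Fbn1 lost its call against a fold change of 2. Of 297 values for the other named genes, 271 kept both, 23 lost and 3 gained a call, and DESeq2 gave no adjusted p for Mmp9. The number of assembly genes lower at P0 was 5 with at least 10 counts in every sample, 5 against a fold change of 2 and 5 without NDP10.2 and NPD9.2. Without each litter it was 8 to 10, and the number higher was 2 to 5, with 5 without NDP10.2. Over all genes, 1137 rose and 791 fell against a fold change of 2, and 1493 rose and 1088 fell without NDP10.2 and NPD9.2. Upper quartile scaling moved the median of all genes by -0.147 and no member's call. The log2 difference in the Fbn2 to Fbn1 ratio was -2.81 to -2.72 without each litter, where 3 against 4 litters cannot give a p below 0.0571. With the longest transcript as length, 4 of 10 genes kept their rank at P0, where all neighbours overlap. No paired analysis was possible because the litter names of the stages share no number. The lowest count of a member was 6 reads, for Eln in NPD4.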
